A study of Mus musculus with 6 samples.

Results

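The 10 genes described here, Ltb, Lta, Ltbr, Tnfsf11, Tnfrsf11a, Gp2, Tnfaip2, Relb, Nfkb2 and Il7, belong to lymphotoxin signalling and to the M cells that it helps to form. They were chosen by gene symbol, and all 10 were among the 25339 genes of the table. Messenger RNA was measured by RNA sequencing in mouse colon from a lenvatinib group and a DMSO group with 3 libraries each. Lenvatinib is an oral inhibitor of receptor tyrosine kinases, among them the VEGF receptors, and DMSO is its solvent. The labels give no dose, duration, strain, age or sex, do not say whether colitis was induced, and call the libraries biological replicates without tying them to animals. The p-values rest on the spread among the 6 libraries, and whether each is a separate animal is not stated. Levels are FPKM, that is, fragments scaled by gene length and library depth. A log2 fold change is the mean of log2(FPKM + 1) with lenvatinib minus that with DMSO, and the added 1 makes the change of low genes look smaller.

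As background, lymphotoxin α and lymphotoxin β form a membrane-bound ligand on lymphocytes and on lymphoid tissue inducer cells. Its receptor, encoded by Ltbr, sits on stromal, myeloid and epithelial cells and acts through the non-canonical NF-κB pathway, in which the p100 product of Nfkb2 is processed to p52 and pairs with RelB. In the gut this pathway builds and maintains Peyer's patches, colonic patches and isolated lymphoid follicles. RANKL, the product of Tnfsf11, comes from stromal cells under the follicle epithelium. It acts on its receptor RANK, the product of Tnfrsf11a, to turn epithelial cells into M cells, which carry luminal particles to the follicle. Interleukin 7 sustains lymphocytes and the inducer cells.

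Promoter sequence is shown for Ltb, a ligand gene, and for Nfkb2, an NF-κB subunit gene, because κB sites are where NF-κB dimers bind DNA. The RefSeq promoter table (build GRCm38.p6) held windows of 300 bases, 250 before and 50 after a start site, for 8 of the 10 genes, leaving Relb and Il7. The κB consensus was searched on both strands, and 2 of these 8 genes held a match, Ltb and Nfkb2. Of all 32851 windows of this length, 4.51% held a match. The Ltb stretch is chr17:35194257-35194438 on the plus strand, which ends before the first annotated Ltb exon. Capitals mark the match, whose first base lies at position -87 from the RefSeq start. The 4 Nfkb2 stretches, all on the plus strand, are chr19:46304689-46304718, chr19:46304716-46304745, chr19:46305449-46305478 and chr19:46305695-46305724, and they come from 3 overlapping or neighbouring start windows. The capitals of the Nfkb2 site 1 cover 2 overlapping matches. A match is a description of the letters and not a measured binding site.
Ltb: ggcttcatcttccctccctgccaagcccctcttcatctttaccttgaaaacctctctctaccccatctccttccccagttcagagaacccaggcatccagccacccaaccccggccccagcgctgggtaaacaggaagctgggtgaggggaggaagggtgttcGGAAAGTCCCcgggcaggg
Nfkb2 site 1: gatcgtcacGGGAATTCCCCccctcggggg
Nfkb2 site 2: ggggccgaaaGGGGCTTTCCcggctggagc
Nfkb2 site 3: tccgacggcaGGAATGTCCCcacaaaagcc
Nfkb2 site 4: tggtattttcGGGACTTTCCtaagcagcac

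Several libraries stood apart, which bears on every result below. In each of the 23951 genes above 0, the FPKM values could be turned back into whole reads (tolerance 0.0001 reads), and the recovered depth was 37660528 to 39287783 reads in genes per library. Libraries 2 and 3 of each group were nearly alike. The median squared deviation, relative to that of counting noise, was 2.29 between lenvatinib 2 and 3 and 2.53 between DMSO 2 and 3, against 10.1 to 25.2 for every other pair. The Y-linked gene Ddx3y had 6.54 FPKM in DMSO 1 and was at 0 in the other libraries, while Xist, the RNA of the inactive X chromosome, had 0.00147 FPKM in DMSO 1 and 15.9 to 19.8 FPKM in the other libraries. Lenvatinib 1 differed from lenvatinib 2 and 3 (22.3 and 22.1) by more than from the DMSO libraries (10.8 to 11.1). Car1, a carbonic anhydrase of colonocytes, measured 7590 to 10360 FPKM with lenvatinib and 7823 to 9567 FPKM with DMSO. Of the 9 colon markers, Car1 among them, 8 were tested and 0 passed. Slc26a3 measured 205, 352 and 350 FPKM in lenvatinib 1 to 3, against 195, 165 and 165 FPKM in DMSO 1 to 3. Muc2 measured 71.0, 86.2 and 93.0 FPKM in lenvatinib 1 to 3, against 262, 122 and 136 FPKM in DMSO 1 to 3. The groups did not overlap for either gene, as in 27.5% of the genes tested. Of 11 small intestine markers, 7 of the 9 tested rose in the lenvatinib libraries, where their summed level was 330.2 to 429 FPKM, against 23.2 to 27.2 FPKM in DMSO. The 7 calls became 5 with libraries 2 and 3 as a random block, 3 with the replicate block and 1 with these libraries averaged.

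None of the 10 genes was called different between lenvatinib and DMSO. Of the 10, 7 had a mean of at least 1 FPKM and were tested with limma over 11774 genes, and 0 of the 7 passed an adjusted p of 0.05, where 2.03% of all genes tested did (1.1% higher and 0.934% lower with lenvatinib). No member had an unadjusted p below 0.05, against 22.0% of all genes tested, and limma-voom on the recovered reads also called 0. With sample weights, which count lenvatinib 1 and DMSO 1 less than the others, 6 of the 7 passed (all but Nfkb2), in a fit that called 64.4% of all genes. Among the members, the ligand genes and the NF-κB subunit genes differed within the lenvatinib group, and the receptor genes Ltbr and Tnfrsf11a differed less. This is not a trait of receptor genes, and lenvatinib 1 stood apart from lenvatinib 2 and 3 over the whole table. The receptor genes Tnfrsf13c (1.78, 0.380 and 0.370 FPKM in lenvatinib 1 to 3) and Il2rg (21.3, 7.25 and 6.71 FPKM) also differed within the group. Ltb, Lta and Tnfsf11 were low in lenvatinib 2 and 3, while lenvatinib 1 was within the DMSO range for Ltb and Tnfsf11. Ltbr spanned 53.1 to 60.3 FPKM and Tnfrsf11a 14.0 to 17.4 FPKM over all libraries. The bulk libraries cannot separate fewer cells of a type from less RNA per cell.

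**Figure D1:**
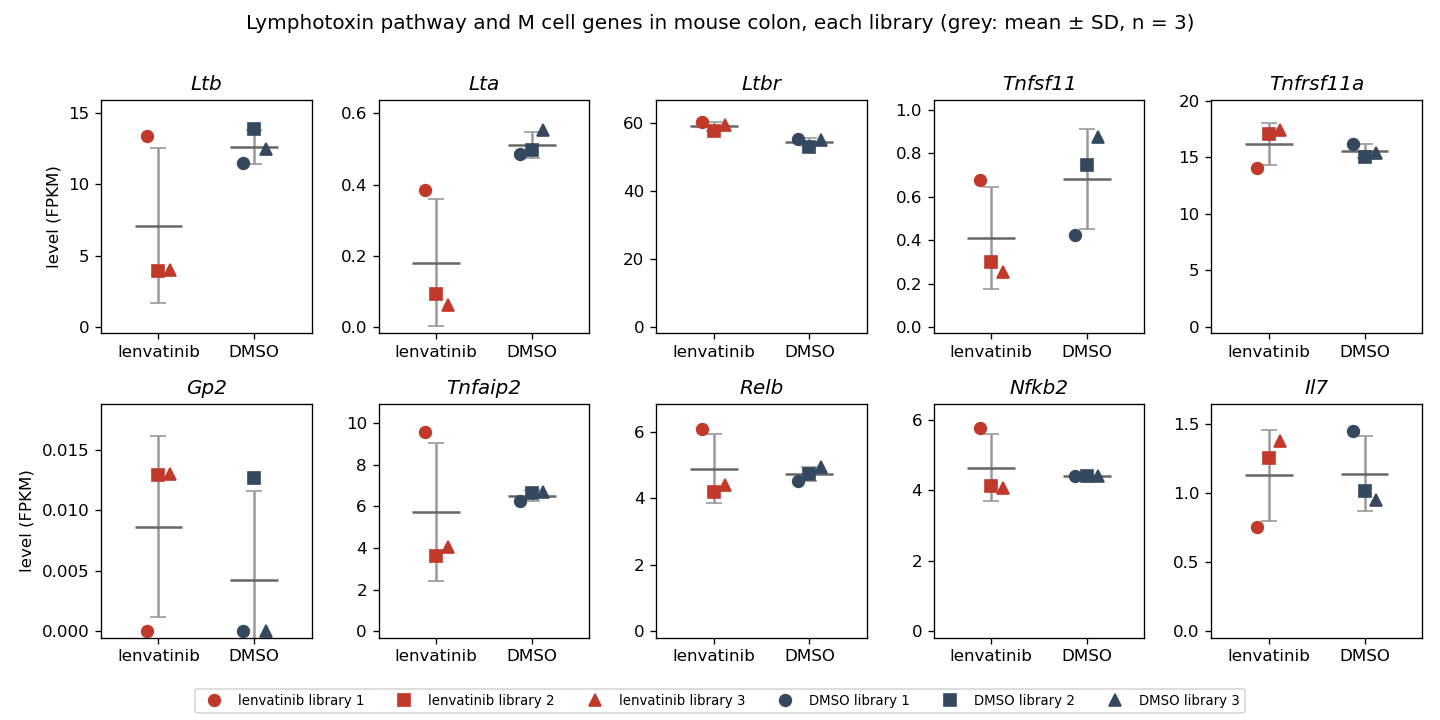
Level in FPKM of each of the 10 genes in every library (points; circles, squares and triangles are libraries 1, 2 and 3), lenvatinib left and DMSO right, with grey mean and SD over 3 libraries and an axis from 0 in each panel. Ltb lies at 13.4 FPKM in lenvatinib 1 but at 3.93 and 4.03 FPKM in lenvatinib 2 and 3, and Ltbr lies between 53.1 and 60.3 FPKM in all 6 libraries.

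Of the ligand genes, Ltb encodes the membrane-anchoring lymphotoxin β chain. It measured 13.4, 3.93 and 4.03 FPKM in lenvatinib 1 to 3, against 11.5, 13.9 and 12.5 FPKM in DMSO 1 to 3. Lenvatinib 1 thus lay inside the DMSO range, and the groups overlapped. The means were 7.11 ± 5.43 FPKM with lenvatinib and 12.6 ± 1.20 FPKM with DMSO (SD, n = 3 each). The log2 fold change was -0.94 (SE 0.42; limma adjusted p = 0.249 with Benjamini-Hochberg adjustment; 5.63e-05 to 0.925 over 19 alternatives). Without lenvatinib 1 the log2 fold change was -1.45 and Ltb passed (limma adjusted p = 4.62e-04), but so did 38.0% of the genes tested there. With libraries 2 and 3 averaged the log2 fold change was -0.65 (limma adjusted p = 0.925).

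Lta encodes lymphotoxin α, which forms a soluble trimer alone or joins lymphotoxin β at the membrane. It lay below the filter and rested on few reads: 24, 6 and 4 reads in lenvatinib 1 to 3, against 30, 32 and 35 reads in DMSO 1 to 3. In FPKM these are 0.385, 0.0944 and 0.0635 with lenvatinib and 0.485, 0.496 and 0.552 with DMSO. Every lenvatinib library lay below every DMSO library, as 17.5% of the genes tested did. The 95% counting intervals (exact Poisson, counting error only) of lenvatinib 2 and 3 reached 13.1 and 10.2 reads, under the lower bounds of 20.2 to 24.4 reads in DMSO. That of lenvatinib 1, 15.4 to 35.7 reads, overlapped them. The log2 fold change was -0.37, and a two-sided exact permutation test over the 6 libraries gave p = 0.1, below which 3 libraries against 3 cannot go. When limma was run with a filter of 0.1 FPKM or with none, the adjusted p was 0.150 and 0.231.

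The balance of the chains can be read per length. Ltb exceeded Lta 34.7, 41.6 and 63.5 times in lenvatinib 1 to 3, against 23.6, 27.9 and 22.6 times in DMSO 1 to 3. All 3 lenvatinib ratios were above the DMSO ratios, and the highest of them rests on 4 Lta reads. The FPKM values imply lengths of 1104 bases for Ltb and 1641 for Lta, against 1516 and 1383 exon bases in GENCODE vM21. With the annotated lengths every ratio would be smaller, and their order would be the same. The ratio was computed after the values had been seen and was not tested. Tnf, the gene that lies between Ltb and Lta on chromosome 17 and encodes the related cytokine, did not share their pattern. It measured 2.88, 1.61 and 1.80 FPKM in lenvatinib 1 to 3, against 2.44, 1.30 and 1.23 FPKM in DMSO 1 to 3 (limma adjusted p = 0.540).

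Levels of lymphocyte markers stand beside those of Ltb. All 12 B cell markers were in the table, and none was at 0 in every library. Their summed level was 51.8, 9.50 and 11.2 FPKM in lenvatinib 1 to 3, against 95.6, 82.7 and 89.1 FPKM in DMSO 1 to 3. Of the 9 tested none passed (9 at an unadjusted p below 0.05), with a median log2 fold change of -1.43, against -0.07 over all genes tested. The 10 T cell markers in the table of 11 summed to 95.7, 17.8 and 19.9 FPKM with lenvatinib and to 47.9, 76.6 and 76.7 FPKM with DMSO, and 0 of 10 passed (0 at an unadjusted p below 0.05). Lenvatinib 1 therefore had the most T cell transcript of all 6 libraries, yet fewer B cell transcripts than any DMSO library. As a percentage of the summed B and T cell markers, Ltb was 9.07, 14.4 and 13.0 in lenvatinib 1 to 3, against 7.99, 8.70 and 7.54 in DMSO 1 to 3. Taken apart, the lists gave different answers for lenvatinib 1. Against the B cell sum Ltb was 25.8%, 41.3% and 35.9% in lenvatinib 1 to 3, against 11.99%, 16.8% and 14.0% in DMSO 1 to 3. Against the T cell sum it was 14.0%, 22.1% and 20.3% in lenvatinib 1 to 3, against 23.9%, 18.1% and 16.3% in DMSO 1 to 3. Relative to T cell markers, lenvatinib 1 was thus the lowest library, and lenvatinib 2 and 3 lay within the DMSO range. These shares were computed after the values had been seen. The part of lymphocyte content in the Ltb values was not tested.

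**Figure D2:**
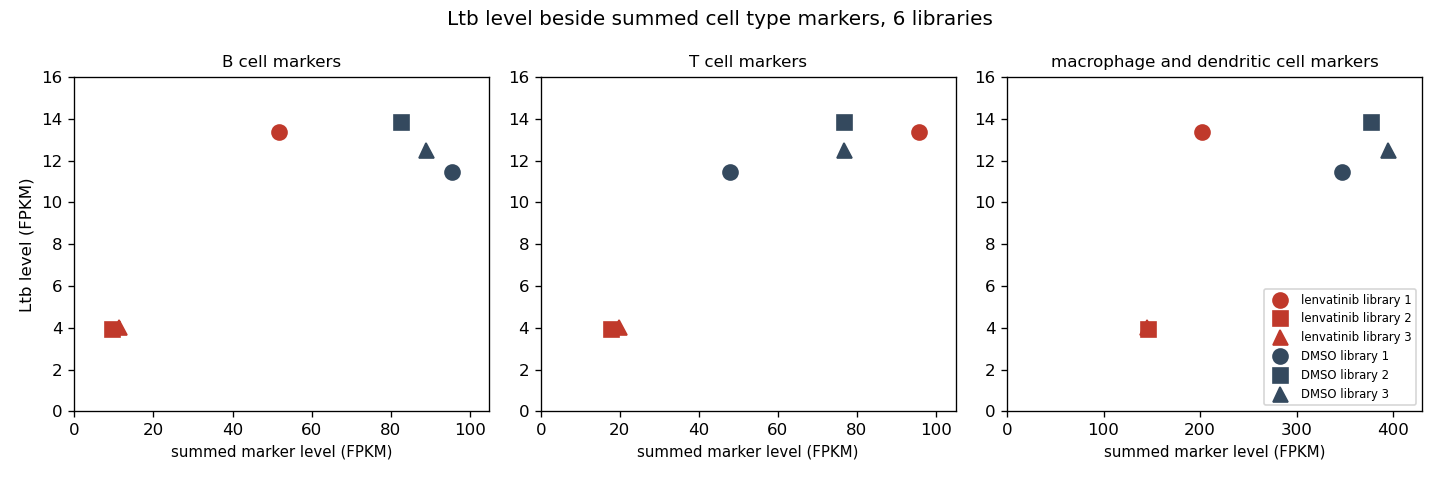
Ltb level (vertical axis, FPKM) against the summed level of B cell, T cell, and macrophage and dendritic cell markers (horizontal axes, FPKM) in the 6 libraries, red for lenvatinib and dark blue for DMSO. Lenvatinib 2 and 3 sit near 4 FPKM of Ltb at the lowest B and T cell sums, and lenvatinib 1 sits at 13.4 FPKM with the highest T cell sum.

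The receptor gene Ltbr was the most abundant of the 10 per length. It measured 60.3, 57.8 and 59.4 FPKM in lenvatinib 1 to 3, against 55.3, 53.1 and 55.2 FPKM in DMSO 1 to 3. The groups did not overlap, as in 27.5% of the genes tested, and Ltbr was the only tested member of which this held. The means were 59.2 ± 1.28 FPKM with lenvatinib and 54.5 ± 1.21 FPKM with DMSO (SD, n = 3 each), a log2 fold change of 0.12 (SE 0.05; limma adjusted p = 0.255). Ltbr did not pass. Ltb per 100 FPKM of Ltbr was 22.2, 6.80 and 6.79 FPKM in lenvatinib 1 to 3, against 20.7, 26.1 and 22.7 FPKM in DMSO 1 to 3.

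The NF-κB subunit genes Relb and Nfkb2 moved together and were highest in lenvatinib 1. Relb measured 6.10, 4.20 and 4.39 FPKM in lenvatinib 1 to 3, against 4.52, 4.73 and 4.96 FPKM in DMSO 1 to 3. Nfkb2 measured 5.75, 4.11 and 4.07 FPKM in lenvatinib 1 to 3, against 4.41, 4.42 and 4.40 FPKM in DMSO 1 to 3. For both genes lenvatinib 1 lay above every DMSO library, and lenvatinib 2 and 3 lay below every one. The log2 fold changes were 0.03 (SE 0.13; limma adjusted p = 0.912) for Relb and 0.05 (SE 0.12; limma adjusted p = 0.826) for Nfkb2, and without lenvatinib 1 they were -0.12 and -0.09 and did not pass. The ratio of Nfkb2 to Relb stayed between 0.887 and 0.978 in all 6 libraries. Nfkb2 overlaps Psd and the long non-coding RNA gene 4833438C02Rik in RefSeq. Since no strand setting is given in the sources used here, it is unknown how reads in a stretch shared by genes were counted. The lengths that the FPKM values imply, 8785 bases for Relb and 11403 for Nfkb2, exceed the 3885 and 4584 exon bases of GENCODE vM21, and a longer length in the denominator lowers an FPKM value.

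Among the M cell genes, Gp2, which encodes the uptake receptor of mature M cells for fimbriated bacteria, was all but absent. It had 0, 1 and 1 reads in lenvatinib 1 to 3 and 0, 1 and 0 reads in DMSO 1 to 3. The limit taken for a count of 0 is 3 reads (the exact Poisson 95% interval reaches 3.69), and 3 reads are 0.0395 FPKM in lenvatinib 1 and 0.0398 FPKM in DMSO 1. No difference in Gp2 was detectable at this depth, and no fold change is given. Sox8, a transcription factor of M cell maturation, was low but above Gp2 in every library. It measured 0.0252 to 0.179 FPKM with lenvatinib and 0.0823 to 0.117 FPKM with DMSO, and no read limit was set for it.

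Tnfaip2 encodes M-Sec, a marker of M cells that macrophages and endothelium also express. It measured 9.55, 3.62 and 4.03 FPKM in lenvatinib 1 to 3, against 6.23, 6.63 and 6.70 FPKM in DMSO 1 to 3. It had the same order as Relb and Nfkb2, with lenvatinib 1 above and lenvatinib 2 and 3 below all DMSO libraries. Of the 7 tested members 3 had this order, which 11.6% of all genes tested share. The log2 fold change was -0.26 (SE 0.31; limma adjusted p = 0.610). Without lenvatinib 1 it was -0.64 and passed (limma adjusted p = 0.00203), in a fit that called 38.0% of genes. Of 12 macrophage and dendritic cell markers, 8 of the 9 tested fell, where 0.934% of all genes tested were called lower. The dendritic cell genes Flt3, Zbtb46 and Xcr1 lay below the filter and were not tested. Itgax did not pass (limma adjusted p = 0.180). The 12 markers summed to 202, 146 and 145 FPKM in lenvatinib 1 to 3, against 347, 377 and 394 FPKM in DMSO 1 to 3. The 8 calls became 3 with libraries 2 and 3 as a random block, 1 with the replicate block, 0 with these libraries averaged, and 3 without any 1 of DMSO 2, DMSO 3, lenvatinib 2 or lenvatinib 3. In lenvatinib 1 Tnfaip2 was above every DMSO library, and the sum of these markers was below every one. The 8 endothelial markers summed to 48.9, 34.0 and 34.5 FPKM in lenvatinib 1 to 3, against 44.8, 42.2 and 43.0 FPKM in DMSO 1 to 3. This sum had the order of Tnfaip2, and 0 of the 8 passed (3 at an unadjusted p below 0.05). The part of either marker list in the Tnfaip2 values was not tested.

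Tnfsf11 encodes RANKL, the signal for M cell formation. It measured 0.678, 0.298 and 0.254 FPKM in lenvatinib 1 to 3, against 0.424, 0.745 and 0.873 FPKM in DMSO 1 to 3. Lenvatinib 2 and 3 were the lowest, but lenvatinib 1 and DMSO 1 overlapped the other group. In whole reads these are at least 29, 13 and 11 with lenvatinib and at least 18, 33 and 38 with DMSO. The length implied by these counts, 1127 bases, compares with 2236 exon bases in GENCODE vM21, a ratio of 1.98, so the true counts may be larger by that factor. The log2 fold change was -0.26, and the two-sided exact permutation test gave p = 0.2.

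The RANK gene Tnfrsf11a was the second most abundant of the 10 per length. It measured 14.0, 17.0 and 17.4 FPKM in lenvatinib 1 to 3, against 16.2, 15.0 and 15.4 FPKM in DMSO 1 to 3. Here lenvatinib 1 was the lowest library and lenvatinib 2 and 3 the highest, the reverse of Tnfaip2. The log2 fold change was 0.05 (SE 0.09; limma adjusted p = 0.763). Osteoprotegerin, the soluble decoy receptor of RANKL encoded by Tnfrsf11b, measured 1.76, 1.27 and 1.44 FPKM in lenvatinib 1 to 3, against 1.51, 1.74 and 1.65 FPKM in DMSO 1 to 3 (limma adjusted p = 0.617). Osteoprotegerin exceeded RANKL 2.60, 4.27 and 5.68 times in lenvatinib 1 to 3, against 3.56, 2.34 and 1.89 times in DMSO 1 to 3, with overlapping groups.

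Il7 encodes the cytokine that epithelium and stroma provide to lymphocytes. It measured 0.757, 1.26 and 1.38 FPKM in lenvatinib 1 to 3, against 1.45, 1.02 and 0.951 FPKM in DMSO 1 to 3. These values rest on 104 to 198 reads per library, and Il7 overlaps the long non-coding RNA gene Gm16685 in RefSeq, with the same limit as for Nfkb2. The highest library was DMSO 1 and the lowest lenvatinib 1, and the group means were 1.13 ± 0.330 FPKM with lenvatinib and 1.14 ± 0.271 FPKM with DMSO (SD, n = 3 each). The log2 fold change was -0.01 (SE 0.15; limma adjusted p = 0.968). The sign of this near-zero value flipped to positive under median of ratios scaling, quantile scaling and sample weights, and without lenvatinib 1 or without DMSO 1, the library with the highest Il7 level. The receptor gene Il7r measured 2.01, 1.05 and 1.23 FPKM in lenvatinib 1 to 3, against 1.74, 1.44 and 1.26 FPKM in DMSO 1 to 3 (limma adjusted p = 0.883).

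**Figure D3:**
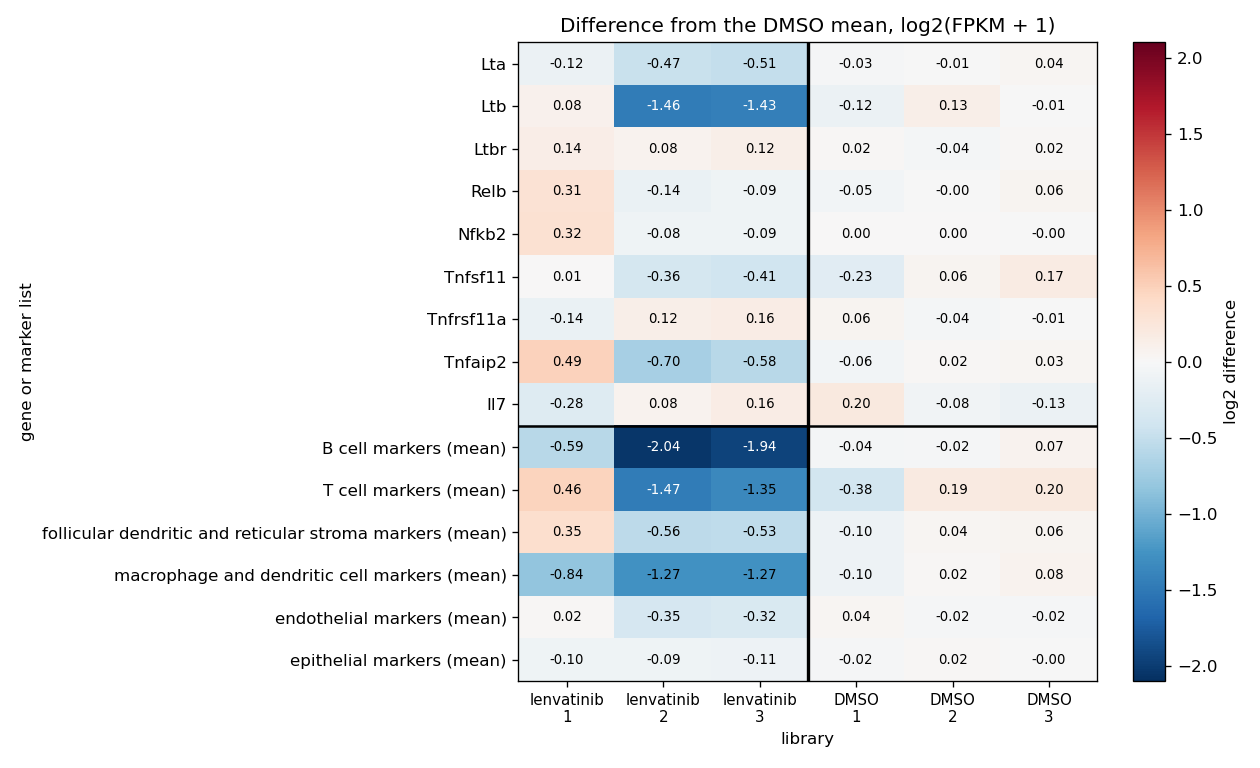
Difference of each library from the mean of the DMSO libraries on the log2(FPKM + 1) scale, for 9 of the 10 genes (above the line; Gp2 is left out) and for the mean of the tested genes of 6 cell type marker lists (below it), with lenvatinib libraries left and DMSO right. Ltb is at -1.46 and -1.43 in lenvatinib 2 and 3 and at 0.08 in lenvatinib 1, and the T cell list is at -1.47 and -1.35 in lenvatinib 2 and 3 and at 0.46 in lenvatinib 1, above every DMSO library.

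Around the members, 7 lists of pathway genes held 1 gene that passed. Of 12 other TNF family ligands and receptors, 8 were tested and 0 passed (2 at an unadjusted p below 0.05; median log2 fold change -0.18). The BAFF receptor gene Tnfrsf13c, a B cell gene, measured 1.78, 0.380 and 0.370 FPKM in lenvatinib 1 to 3, against 3.43, 3.28 and 3.25 FPKM in DMSO 1 to 3 (limma adjusted p = 0.0830). Cd40, the costimulatory receptor that also feeds the non-canonical pathway, measured 1.32, 0.619 and 0.697 FPKM in lenvatinib 1 to 3, against 1.82, 1.85 and 1.95 FPKM in DMSO 1 to 3 (limma adjusted p = 0.101). The groups did not overlap for either gene, as in 27.5% of the genes tested, and neither passed. Both were named for the lowest unadjusted p of their list. Tnfrsf1b and Tnfrsf14, the receptors for TNF and for LIGHT, overlapped between groups.

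All 15 genes of the NF-κB signal relay were tested and 0 passed (1 at an unadjusted p below 0.05), with a median log2 fold change of -0.07, the same as for all genes tested. Map3k14 encodes NIK, the kinase that starts p100 processing. It measured 3.30, 2.17 and 2.31 FPKM in lenvatinib 1 to 3, against 3.36, 3.10 and 3.03 FPKM in DMSO 1 to 3 (limma adjusted p = 0.327). Birc3, for the ubiquitin ligase cIAP2, had the lowest unadjusted p of the list, at 13.0, 12.5 and 12.6 FPKM in lenvatinib 1 to 3, against 11.5, 10.2 and 10.8 FPKM in DMSO 1 to 3 (limma adjusted p = 0.150). Traf5 and Rel had overlapping groups. Of 9 feedback inhibitors 0 passed (3 at an unadjusted p below 0.05; median log2 fold change -0.08). Nfkbia, the inhibitor IκBα, measured 62.8, 49.1 and 52.5 FPKM in lenvatinib 1 to 3, against 44.3, 44.4 and 43.1 FPKM in DMSO 1 to 3 (limma adjusted p = 0.160). Its groups did not overlap, as in 27.5% of the genes tested. Cyld, a deubiquitinase that dampens the pathway, measured 6.28 ± 0.791 FPKM with lenvatinib and 7.99 ± 0.555 FPKM with DMSO (SD, n = 3 each; limma adjusted p = 0.162). Nfkbiz and Nfkbie had overlapping groups.

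Of 12 lymphotoxin target genes of lymphoid stroma tested, of 13 in the list, 0 passed (3 at an unadjusted p below 0.05), with a median log2 fold change of -0.29. Ccl19, a chemokine of T cell zones, measured 3.47, 0.707 and 0.645 FPKM in lenvatinib 1 to 3, against 3.53, 3.45 and 2.57 FPKM in DMSO 1 to 3 (limma adjusted p = 0.265). Cxcl13, the chemokine that draws B cells into follicles, measured 34.9, 12.3 and 13.1 FPKM in lenvatinib 1 to 3, against 16.4, 15.4 and 18.3 FPKM in DMSO 1 to 3 (limma adjusted p = 0.891). In lenvatinib 1 Cxcl13 was above every DMSO library while the summed B cell markers were below every one. Ccl20, the chemokine that follicle epithelium makes for cells with CCR6, measured 2.57, 4.44 and 4.67 FPKM in lenvatinib 1 to 3, against 1.97, 2.52 and 2.47 FPKM in DMSO 1 to 3 (limma adjusted p = 0.190). Chst4 and Enpp2, enzymes known from high endothelial venules, averaged 11.0 ± 1.79 and 5.53 ± 0.590 FPKM with lenvatinib, and 15.7 ± 2.37 and 6.78 ± 0.178 FPKM with DMSO (SD, n = 3 each), and did not pass. Which cells of the colon held these transcripts was not measured. The 8 tested markers of follicular dendritic and reticular stroma held 0 that passed (0 at an unadjusted p below 0.05), and the 9 in the table summed to 183.5, 87.8 and 90.6 FPKM in lenvatinib 1 to 3, against 125.4, 130.8 and 146.8 FPKM in DMSO 1 to 3. This sum had the order of Relb, Nfkb2 and Tnfaip2, highest in lenvatinib 1 and lowest in lenvatinib 2 and 3, and its part in the values of these genes was not tested.

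Of 15 tested genes of M cells and follicle epithelium, of 19 in the list, 1 fell and none rose (5 at an unadjusted p below 0.05), with a median log2 fold change of -0.37. The fold change was negative for 11 of the 15 and positive for 4. The gene that fell was Ctsh, which encodes the protease cathepsin H and is also expressed by macrophages. It measured 37.3, 38.6 and 39.0 FPKM in lenvatinib 1 to 3, against 53.2, 51.8 and 54.4 FPKM in DMSO 1 to 3. All 3 lenvatinib libraries lay below all DMSO libraries, by a log2 fold change of -0.46 (SE 0.05; limma adjusted p = 0.0143; 4.05e-05 to 0.544 over 19 alternatives). The call was lost with libraries 2 and 3 averaged (limma adjusted p = 0.544) and as a random block (0.210), with median of ratios scaling (0.0561), with the replicate block (0.101), and without DMSO 2, DMSO 3, lenvatinib 2 or lenvatinib 3 (0.0835 to 0.110). The summed macrophage and dendritic cell markers were also lower in all lenvatinib libraries, and their part in the Ctsh values was not tested. Spib, the transcription factor that M cells share with B cells, measured 3.75, 2.15 and 1.76 FPKM in lenvatinib 1 to 3, against 5.35, 7.58 and 6.80 FPKM in DMSO 1 to 3 (limma adjusted p = 0.0701). Anxa5 and Aif1, which macrophages also express, were lower without overlap and did not pass (limma adjusted p = 0.0856 and 0.110). Ccl20, also in this list, and Scg5 were higher without overlap and did not pass (limma adjusted p = 0.190 and 0.242). The groups did not overlap for 6 of the 15 genes, against 27.5% of all genes tested.

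Of 15 genes of lymphoid tissue inducer and related innate lymphoid cells, 8 were tested and 0 passed (2 at an unadjusted p below 0.05; median log2 fold change -0.17). Cxcr5, the receptor for CXCL13 on B cells and inducer cells, measured 1.94, 0.388 and 0.382 FPKM in lenvatinib 1 to 3, against 2.35, 3.25 and 3.82 FPKM in DMSO 1 to 3 (limma adjusted p = 0.123). Ccr6, below the filter, measured 0.862, 0.374 and 0.243 FPKM in lenvatinib 1 to 3, against 1.28, 1.52 and 1.50 FPKM in DMSO 1 to 3. Il22, a cytokine of these cells, measured 0.0553 to 0.238 FPKM with lenvatinib and 0.113 to 0.721 FPKM with DMSO. Cxcr5 and Ccr6 were lower in every lenvatinib library than in any DMSO library, as 17.5% of the genes tested were. The same share stands beside Ahr and Cish below. Cxcr5, Ahr and Cish were named for a low unadjusted p, and Ccr6 after its values had been seen. Ahr, a ligand-activated transcription factor that these cells need, measured 3.68, 3.61 and 3.68 FPKM in lenvatinib 1 to 3, against 5.30, 4.51 and 4.30 FPKM in DMSO 1 to 3, without overlap (limma adjusted p = 0.143). Of 12 tested genes of the IL-7 pathway 0 passed (2 at an unadjusted p below 0.05), with a median log2 fold change of -0.21. Il2rg, the shared receptor chain, measured 21.3, 7.25 and 6.71 FPKM in lenvatinib 1 to 3, against 16.8, 23.8 and 26.9 FPKM in DMSO 1 to 3 (limma adjusted p = 0.229). Cish, a feedback inhibitor of cytokine receptors, measured 2.80, 2.31 and 2.24 FPKM in lenvatinib 1 to 3, against 3.48, 3.24 and 3.04 FPKM in DMSO 1 to 3, without overlap (limma adjusted p = 0.147).

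**Figure D4:**
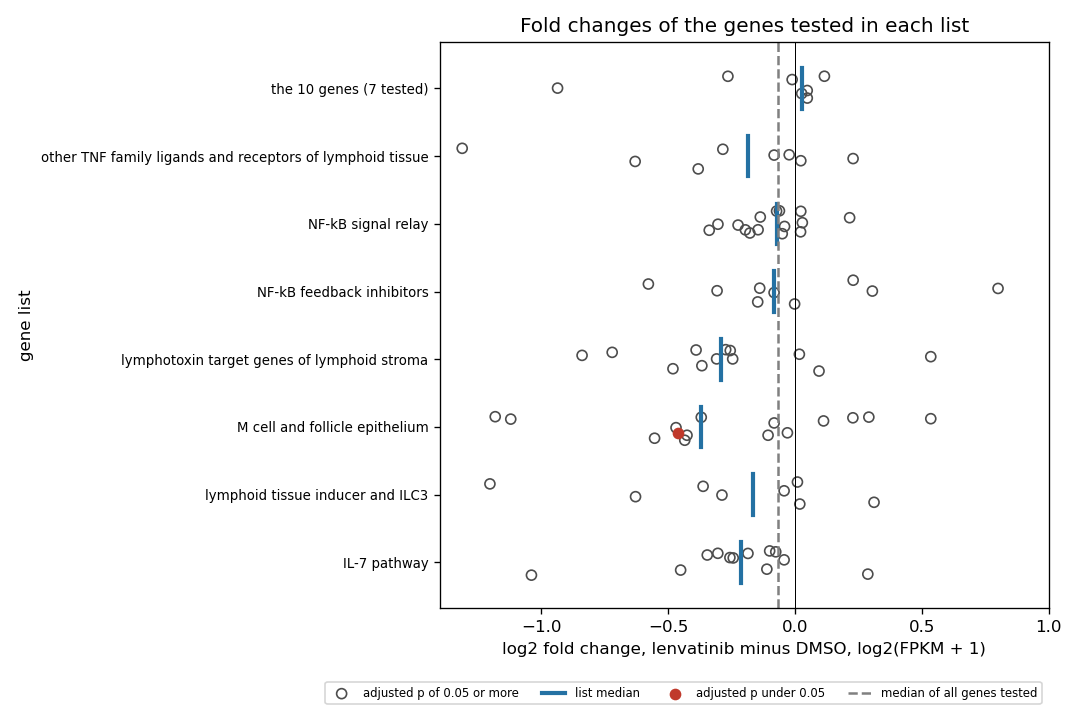
Log2 fold change (lenvatinib minus DMSO, log2(FPKM + 1) scale) of every tested gene of the 10 and of the 7 pathway lists; open circles did not pass, the filled circle passed at an adjusted p under 0.05, blue bars are list medians and the dashed line is the median of all genes tested. Some genes stand in more than 1 list. The filled circle is Ctsh at -0.46, and the lowest of the tested members is Ltb at -0.94.

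The likeness of patterns over the 6 libraries was described by Pearson's r on the log2(FPKM + 1) scale, without a test, since each group holds a pair of nearly alike libraries. Ltb was most like Tcof1, and next like Ccdc34 and the splicing factor gene Sf3b3 (r = 0.999 for both). Sf3b3 measured 27.9, 19.0 and 18.9 FPKM in lenvatinib 1 to 3, against 26.2, 28.2 and 27.4 FPKM in DMSO 1 to 3. Tnfaip2 was most like Ewsr1, Vim and Lilrb4b (r = 0.997 each), of which Vim is the intermediate filament of mesenchymal cells and leukocytes. Relb was most like Angpt2 (r = 0.997), Dkk3 and Casp12, and Nfkb2 like the glycolytic gene Pgk1 (r = 0.998), Xdh and Tubgcp3. Tnfrsf11a was most like Atp6v0d1 (r = 0.999) and the interferon-induced genes Trim30a and Oasl2. Oasl2 measured 25.8, 84.4 and 86.0 FPKM in lenvatinib 1 to 3, against 63.8, 39.9 and 42.0 FPKM in DMSO 1 to 3. Ltbr was most like Cask (r = 0.984), Tet2 and Hspb2, and Il7 like Trim56 (r = 0.998), Mbnl2 and Aoc3. Among the members, Relb and Nfkb2 were the most alike (r = 0.96), and Tnfaip2 and Tnfrsf11a were the most opposed (r = -0.95).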

How the data were processed

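RNA of mouse colon was measured in 6 libraries, 3 labelled lenvatinib and 3 DMSO, from TRIzol extracts and a VAHTS V10 kit according to the labels' protocols. The authors deposited FPKM values. The submitters' processing notes name HTSeq, a read counter, and the build GRCm39. For the aligner, annotation, strand setting, versions and filters, the entry is: not given in the sources used here. A GRCm38 reference was used for sequences, which carry RefSeq GRCm38.p6 coordinates, and table rows were matched by symbol.

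Whole reads were recovered as the smallest whole numbers that fit all libraries of a gene. The 11774 genes whose mean reached 1 FPKM were tested on log2(FPKM + 1) with limma 3.58.1 in R 4.3.3 (trended, robust, two-sided, Benjamini-Hochberg over all genes tested, threshold 0.05). Members below this filter were compared by exact permutation over 20 regroupings. The fit was run on simulated data with 200 of 11774 genes changed, and it recovered 100% of them with 11 false calls. The simulated libraries were independent, without nearly alike pairs or an outlying library, so this result does not carry over to the measured libraries. Lists were counted, with no set test. Genes named from lists were up to 4 by unadjusted p. Further genes, among them Sox8, Scg5, Tnf, Tnfrsf11b, Il7r, Cxcl13, Ccr6, Il22, Ddx3y, Xist and Car1, were picked after their values were seen. The members and lists were chosen with earlier results of these data known.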

Additional observations from a re-analysis of the deposited data

How the results depend on the processing

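Of the 7 tested members, Ltb, Ltbr and Tnfaip2 kept their direction in every alternative run. The count of members that passed was 0 except with sample weights (6; 7582 of all genes tested, 64.4%) and, over the fits that left out 1 library, 0 to 2, the 2 being Ltb and Tnfaip2 without lenvatinib 1. Over all genes the count was 239, against 140 with no filter, 46 with libraries 2 and 3 as a random block, 4 with them averaged and 29 with the replicate block; leaving out 1 library gave 44 to 4456. Same-numbered libraries of the groups did not deviate together (r = -0.20, -0.16 and -0.15). This cannot exclude a batch shared by number, since libraries 2 and 3 were the nearly alike pair in both groups. The replicate block called none of the members. These directions reversed: Tnfrsf11a with libraries 2 and 3 averaged (-0.013) or as a random block (-0.0082); Relb (-0.14, limma adjusted p = 0.0491), Nfkb2 (-0.080), Il7 (0.20, 0.0330) and Cldn5 (-0.0033) with sample weights; and Il7 with median of ratios (0.033) and quantile scaling (0.085). Without 1 library, Tnfrsf11a spanned -0.0066 to 0.14, Relb -0.12 to 0.11, Nfkb2 -0.088 to 0.12 and Il7 -0.10 to 0.12. The cause was not tested. EdgeR and DESeq2 were planned and not run, since the deposited unit is FPKM; limma-voom on recovered reads, chosen after seeing the data, called 235 genes and 0 members. Depth limits Lta, Tnfsf11 and Gp2.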
